A study of Mus musculus with 18 samples.

Results

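The lysosomal hydrolases, lysosomal membrane proteins and transcription factors of the TFEB family form a set of 39 genes, chosen by name from the 55487 genes of the count table, with the cathepsins not included. By role the set holds 12 glycosidases, 4 sulfatases, 5 lipid hydrolases, 3 proteases and nucleases, 3 activators and progranulin, 9 membrane proteins and 3 transcription factors. All 39 genes passed the filter on low counts, so every member was tested.

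The lysosome is the acidic compartment in which the cell breaks down what it takes up by endocytosis and phagocytosis and what it delivers by autophagy. Its soluble hydrolases each cut one kind of bond in sugars, sulfated chains, lipids or proteins, and its membrane proteins keep the compartment closed, acidic and in exchange with the cytosol. TFEB, TFE3 and MITF bind the E-box CACGTG, most strongly in the longer form of the CLEAR element, in promoters of lysosomal genes, and the kinase mTORC1 keeps TFEB and TFE3 in the cytosol when nutrients are plentiful. In the brain, neurons and microglia both depend on this compartment, and inherited loss of many of these enzymes causes a storage disease with neurodegeneration.

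RNA of the frontal cortex was sequenced from 18 mice aged 9 to 10 months, 3 females and 3 males of each of 3 genotypes. APP/PS1 mice carry the 2 APP/PS1 transgenes (line 85Dbo) and deposit amyloid. APP/PS1/FTnKO mice carry the same transgenes and in addition CamKIIα-Cre, which deletes the floxed β subunit of farnesyltransferase (FT) after birth and in forebrain neurons only, so that glia and other cells of the sample keep the enzyme. By the methods of the study, the mice came from a cross in which the floxed FT alleles are homozygous (FT f/f) and the WT mice are littermates with neither the APP/PS1 transgenes nor Cre, whereas the series record calls the WT mice C57BL/6J. The labels name Alzheimer's disease as the disease model of every mouse, WT included.

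Libraries held 15925432 to 21030935 counts per mouse, and the lowest count of any member in the 17 mice of the main comparisons was 97, for Tfeb. The RNA integrity number (RIN) was 8.5 to 8.8 in WT mice, from 7.7 to 8.7 in APP/PS1 mice and between 7.6 and 8.7 in APP/PS1/FTnKO mice. WT mouse 19622 stood apart, with summed excitatory neuron markers of 582 CPM (counts scaled to a common library total) against 5290 to 7110 CPM in the other WT mice and cerebellum markers of 3280 against 41.1 to 68.7 CPM, and it is treated separately. Fntb, the targeted gene, had 7.84 to 14.7 CPM in APP/PS1/FTnKO against 14.2 to 32.1 in APP/PS1 mice over the whole gene and all cells of the tissue (log2 fold change -0.77, SE 0.26, FDR = 0.251 in edgeR). This difference was not called and does not establish the genotypes, and the labels were taken as given. CPM values are scaled by edgeR's TMM method, and a gene was called changed at a false discovery rate (FDR) below 0.05, with Benjamini-Hochberg adjustment over all 17414 genes tested in edgeR's quasi-likelihood test with genotype and sex. In bulk tissue, more cells of a type and more RNA per cell cannot be told apart.

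The promoters of 38 of the 39 members, from 250 bases before to 50 bases after the transcription start, were matched by symbol in RefSeq (GRCm38.p6). Asah1 had no entry. The E-box CACGTG, which reads the same on both strands, lay in 10 of these 38 promoters (26.3%), against 2187 of 27025 genes with a promoter in the table (8.09%). Longer forms of 8 bases, TCACGTGA, GTCACGTG or its complement CACGTGAC, which overlap each other and contain the core, were in 9 of the 38 (23.7%) and in 749 of all 27025 (2.77%). Lamp1 held 4 cores and Mcoln1, Gla and Cln3 held 2 each, and these were the only members with more than 1. The stretches below show the 2 membrane protein promoters with the cores closest together, with the E-boxes in capitals, extended where an 8-base form is present. The Lamp1 stretch is chr8:13159061-13159160 on the plus strand, the 100 bases upstream of its transcription start, and the Mcoln1 stretch is chr8:3500419-3500518 on the plus strand, the 100 bases upstream of its own.

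Lamp1: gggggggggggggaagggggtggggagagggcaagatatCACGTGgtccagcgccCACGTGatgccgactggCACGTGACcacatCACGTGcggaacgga

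Mcoln1: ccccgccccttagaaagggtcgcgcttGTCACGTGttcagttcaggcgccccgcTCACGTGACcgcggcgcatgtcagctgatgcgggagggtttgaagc

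Another 7 members held an 8-base form, and 30-base windows around it are given for 4 of them because they differ in what their RNA did below. Naglu (chr11:101070009-101070038, plus strand) and Lgmn (chr12:102439124-102439153, minus strand) were called higher in APP/PS1 mice, and Glb1 (chr9:114401018-114401047, plus strand) and Arsa (chr15:89477423-89477452, minus strand) were not.

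Naglu: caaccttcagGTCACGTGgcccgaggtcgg

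Lgmn: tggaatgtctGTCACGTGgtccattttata

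Glb1: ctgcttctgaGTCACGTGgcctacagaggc

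Arsa: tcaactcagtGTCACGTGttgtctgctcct

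**Figure D1:**
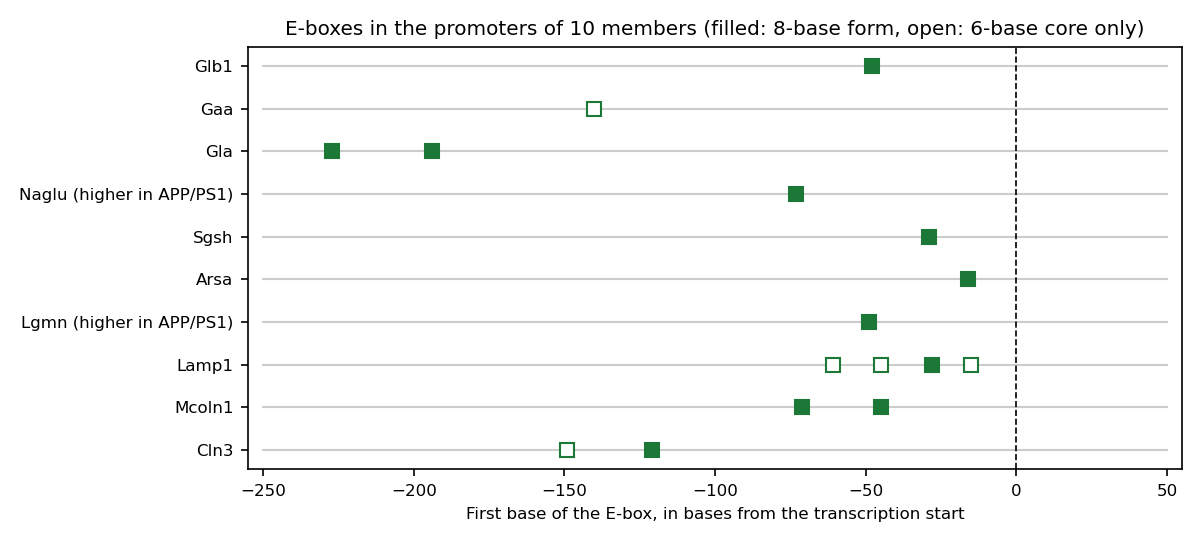
Positions of the E-box in the promoters of the 10 members that hold it, in bases from the transcription start (dashed line), with 1 row per gene, filled squares for the 8-base forms and open squares for the 6-base core alone. Lamp1 has 4 cores up to 61 bases before its start, and Naglu and Lgmn are the members of this group that were called higher in APP/PS1 mice.

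In WT cortex the members differed widely in level per exon length. Psap, which encodes the precursor of the 4 saposins that present sphingolipids to their hydrolases, had 584 CPM per kilobase of exon. It was followed by Pld3, a lysosomal exonuclease of neurons, with 228, the iduronate sulfatase Ids with 115, the membrane glycoprotein Lamp1 with 108 and the glycogen-degrading glucosidase Gaa with 77.2 CPM per kilobase. At the low end stood the β-mannosidase Manba with 1.37, Tfeb with 1.40 and Mitf with 1.61 CPM per kilobase. Tfe3, at 5.14 CPM per kilobase, was the most abundant of the 3 transcription factors. Between the 5 WT mice the members were even, with coefficients of variation in CPM from 1.82% for Gm2a to 14.3% for Mitf. Exons of 11 members share bases with another annotated gene, 10 of them on the opposite strand, and whether the counting kept such reads apart is not known here.

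**Figure D2:**
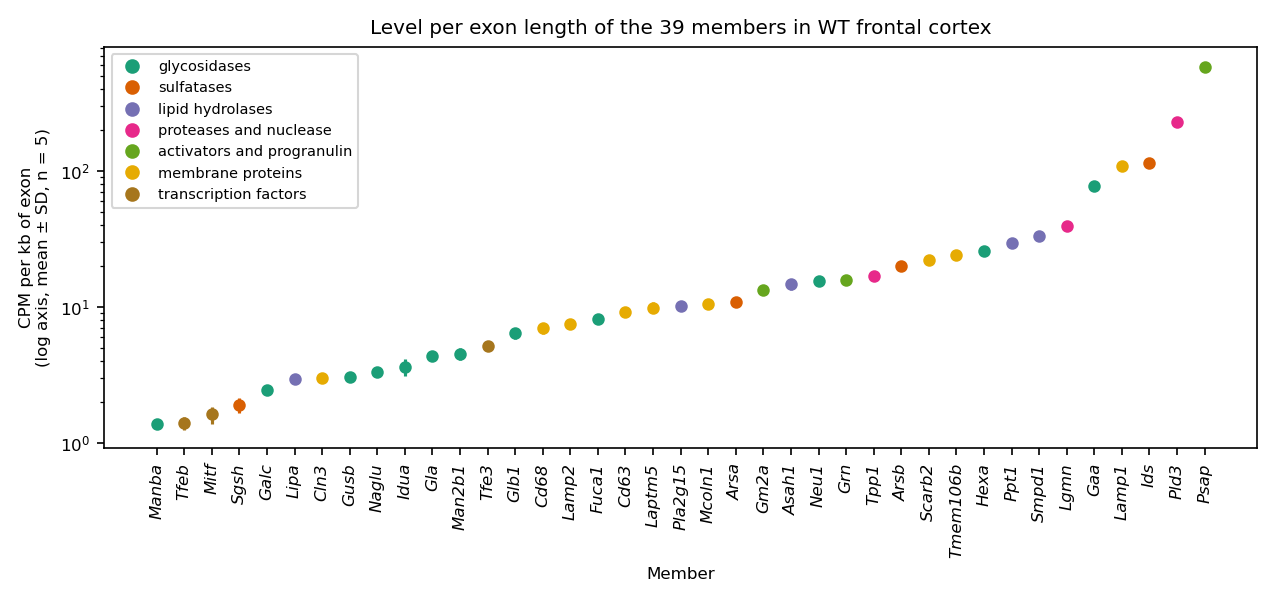
Level of each of the 39 members in WT frontal cortex, as CPM per kilobase of exon on a log axis, with points for the mean and bars for the SD of 5 mice, coloured by role. Psap is highest at 584 and Manba lowest at 1.37 CPM per kilobase.

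The first comparison asked which members differ between APP/PS1 and WT mice. In it, 10 of the 39 members rose and 0 fell in edgeR's test, where 1.32% of all genes tested rose and 0.178% fell. The median log2 fold change of the members was 0.16, against 0.00 for all genes tested, with 33 members positive and 6 negative and 20 members at an unadjusted p under 0.05, which 14% of all genes had. In 12 members every APP/PS1 mouse lay above every WT mouse, a pattern seen in 1.71% of all genes. Of the 10 promoters of the called members 2 held the E-box (20%), against 8 of the 28 other promoters (28.6%). With 19622 included, 7 members were called higher, where 1.13% of 17285 genes were.

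Of the glycosidases, 4 of 12 rose. Hexa (ENSMUSG00000025232, GRCm38 chromosome 9 from 59539540 to 59565109), the α subunit of the β-hexosaminidase that degrades GM2 ganglioside, had 55.4, 50.1, 48.8, 51.7 and 49.7 CPM in WT mice 18944, 19053, 19101, 19718 and 19721. Its lowest, median and highest CPM were 64.9, 84.3 and 96.2 in APP/PS1 and 61.5, 78.7 and 81.3 in APP/PS1/FTnKO mice. All 12 transgenic mice lay above all 5 WT mice, and the log2 fold change of APP/PS1 against WT was 0.68 (SE 0.08, FDR = 2.2e-04 in edgeR). Its exons share 12.8% of their bases with Tmem202 on the opposite strand, and no source used here gives the strand setting of the counting.

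Gusb (ENSMUSG00000025534, chromosome 5 from 129989011 to 130003049), the β-glucuronidase of glycosaminoglycan breakdown, had 12.96, 14.33, 14.51, 13.04 and 14.11 CPM in the WT mice in the same order. It ranged from 19.0 through a median of 31.6 to 35.3 CPM in APP/PS1 and from 15.7 through 25.7 to 29.2 in APP/PS1/FTnKO mice. Again no transgenic mouse overlapped the WT mice, with a log2 fold change of 1.07 in APP/PS1 (SE 0.15, FDR = 7.3e-04, edgeR).

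Man2b1 (ENSMUSG00000005142, chromosome 8 from 85083270 to 85098282), the lysosomal α-mannosidase that trims N-linked sugar chains, was the glycosidase with the largest difference. The WT mice had 35.0, 35.9, 39.6, 30.8 and 40.4 CPM, and the lowest, median and highest APP/PS1 mice 49.0, 83.9 and 111 CPM. APP/PS1/FTnKO mice had 49.4, 70.2 and 81.6 CPM in the same terms. The log2 fold change in APP/PS1 was 1.15 (SE 0.16, FDR = 7.8e-04, edgeR), with no overlap between either transgenic genotype and WT.

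Naglu (ENSMUSG00000001751, chromosome 11 from 101070012 to 101077672), which removes N-acetylglucosamine residues from heparan sulfate and whose E-box window is shown above, had 9.41, 8.22, 9.39, 8.20 and 8.79 CPM in WT mice. In APP/PS1 mice it ranged from 9.46 through a median of 14.2 to 20.6 CPM, so that the lowest APP/PS1 mouse lay just above the highest WT mouse. In APP/PS1/FTnKO mice the lowest, median and highest values were 10.0, 13.7 and 16.3 CPM. Its log2 fold change in APP/PS1 was 0.72 (SE 0.18, FDR = 0.0488, edgeR), and it was called in 11 of 29 alternative settings. The call is therefore at the edge of the threshold, and the direction was the same in all 29 settings.

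The other 8 glycosidases were not called. Glb1, the β-galactosidase, came nearest without overlap, with 18.3, 19.2, 22.2, 19.2 and 17.4 CPM in WT and 22.7 to 24.9 CPM in APP/PS1 mice (log2 fold change 0.29, SE 0.09, FDR = 0.124 in edgeR). Fuca1, the α-fucosidase, had a log2 fold change of 0.29 (FDR = 0.0973) with overlapping groups. Manba (0.18), Idua (0.12), Galc (0.09), Gla (0.07), Neu1 (0.00) and Gaa (-0.03) had log2 fold changes with FDR values of 0.352 to 0.999. Of these, Galc degrades the myelin lipid galactosylceramide and Neu1 is the lysosomal sialidase.

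None of the 4 sulfatases was called in edgeR's test, and 0 had an unadjusted p under 0.05. Arsa, which desulfates sulfatide, had a log2 fold change of 0.08, Arsb 0.05, Ids -0.06 and the heparan sulfatase Sgsh -0.09 (FDR from 0.564 to 0.768). Arsa and Sgsh share 18.8% and 21.6% of their exon bases with a gene on the opposite strand, and Arsb 32.3% with the largest of 2 such genes. The 5 lipid hydrolases were not called either. Lipa, the acid lipase of cholesteryl esters, had a log2 fold change of 0.20 (FDR = 0.184) and the phospholipase Pla2g15 of 0.16 (FDR = 0.185), the latter with no overlap between groups. The acid ceramidase Asah1 (0.13), the palmitoyl thioesterase Ppt1 (0.09) and the acid sphingomyelinase Smpd1 (-0.05) had FDR values of 0.446 to 0.647.

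Among the proteases and nuclease, Lgmn (ENSMUSG00000021190, chromosome 12 from 102394084 to 102439813), the asparagine-specific endopeptidase, was called higher. It had 93.5, 87.8, 98.02, 87.5 and 91.1 CPM in WT mice and 96.4, 117 and 125 CPM as lowest, median and highest in APP/PS1 mice. APP/PS1/FTnKO mice had 92.7, 108 and 117 CPM. The lowest APP/PS1 mouse lay within the WT range, and the log2 fold change of 0.29 (SE 0.07, FDR = 0.0343, edgeR) was called in 17 of 29 alternative settings. Tpp1, the tripeptidyl peptidase of the neuronal ceroid lipofuscinoses, had a log2 fold change of 0.24 (FDR = 0.0655), and Pld3 of -0.08 (FDR = 0.472).

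Grn (ENSMUSG00000034708, chromosome 11 from 102430315 to 102437048) encodes progranulin, a secreted and lysosomal glycoprotein that neurons and microglia make. The WT mice lay within a narrow range, at 55.2, 54.999, 53.4, 53.0 and 55.5 CPM. APP/PS1 mice had 68.2, 103 and 114 CPM as lowest, median and highest, and APP/PS1/FTnKO mice 59.5, 84.8 and 92.5 CPM. No transgenic mouse overlapped the WT mice, and the log2 fold change in APP/PS1 was 0.82 (SE 0.11, FDR = 6.6e-04, edgeR). Psap, whose protein binds progranulin, stayed between 1554 and 1631 CPM in APP/PS1 mice, with 1569, 1607, 1576, 1660 and 1599 CPM in WT mice, and its log2 fold change was 0.00 (SE 0.04, FDR = 0.984). The Psap values of the groups overlapped almost fully. Gm2a, the activator that hands GM2 to β-hexosaminidase, differed by 0.23 on the log2 scale (SE 0.09, FDR = 0.280).

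Of the membrane proteins, 4 of 9 rose. Cd68 (ENSMUSG00000018774, chromosome 11 from 69664213 to 69666153), a LAMP-related glycoprotein of macrophage and microglial lysosomes, had the largest difference of all 39 members. WT mice had 9.70, 9.39, 8.96, 8.05 and 7.75 CPM, and the lowest, median and highest APP/PS1 mice 17.5, 39.2 and 52.3 CPM. APP/PS1/FTnKO mice had 14.8, 33.5 and 40.7 CPM. The lowest transgenic mouse lay above the highest WT mouse, and the log2 fold change in APP/PS1 was 2.02 (SE 0.25, FDR = 2.5e-04, edgeR).

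Laptm5 (ENSMUSG00000028581, chromosome 4 from 130913125 to 130936141), a lysosomal membrane protein of blood-derived cells and microglia, had 40.0, 32.2, 36.5, 37.6 and 40.7 CPM in WT mice. The lowest, median and highest values were 53.9, 87.9 and 118 CPM in APP/PS1 and 35.3, 71.6 and 80.6 CPM in APP/PS1/FTnKO mice. APP/PS1 mice did not overlap WT mice (log2 fold change 1.20, SE 0.19, FDR = 0.00177, edgeR), whereas 1 APP/PS1/FTnKO mouse, 18973, fell within the WT range.

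Cd63 (ENSMUSG00000025351, chromosome 10 from 128900989 to 128912822), a tetraspanin of late endosomes and lysosomes, had 36.3, 33.8, 35.0, 28.8 and 34.7 CPM in WT mice. It had 38.4, 59.2 and 75.7 CPM as lowest, median and highest in APP/PS1 and 37.2, 52.7 and 65.6 CPM in APP/PS1/FTnKO mice. Both transgenic genotypes lay above WT without overlap (log2 fold change in APP/PS1 0.76, SE 0.15, FDR = 0.0119, edgeR).

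Lamp2 (ENSMUSG00000016534, chromosome X from 38401357 to 38456454) and Lamp1 are the 2 main glycoproteins of the lysosomal membrane, and Lamp2 also has a form that serves chaperone-mediated autophagy. Lamp2 had 73.2, 74.7, 69.7, 70.4 and 71.2 CPM in WT mice, 76.7, 91.2 and 100 CPM as lowest, median and highest in APP/PS1 mice, and 71.7, 82.6 and 91.0 CPM in APP/PS1/FTnKO mice. APP/PS1 mice did not overlap WT mice (log2 fold change 0.33, SE 0.06, FDR = 0.00698, edgeR). Lamp1 had 289, 296, 309, 269 and 276 CPM in WT mice, 284, 339 and 377 CPM in APP/PS1 and 289, 300 and 356 CPM in APP/PS1/FTnKO mice. The Lamp1 groups overlapped, and its log2 fold change was 0.22 (SE 0.07, FDR = 0.185).

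The mouse set apart bears on both of these genes. Lamp2 had 122 and Lamp1 435 CPM in 19622, and with that mouse in the WT group the log2 fold change of Lamp2 was 0.19 (FDR = 0.430) and that of Lamp1 0.11 (FDR = 0.667). Cd63, with 53.4 CPM in 19622, then had an FDR of 0.0618, and Lgmn, with 125 CPM, of 0.255.

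The remaining membrane proteins were not called. Cln3, lost in juvenile ceroid lipofuscinosis, had a log2 fold change of 0.22 (FDR = 0.261), the calcium channel Mcoln1 of 0.16 (FDR = 0.214, no overlap between groups) and Scarb2, the carrier of glucocerebrosidase, of 0.03 (FDR = 0.805). Tmem106b, a risk gene of frontotemporal dementia with progranulin loss, had 171, 160, 173, 159 and 164 CPM in WT and 132, 157 and 174 CPM as lowest, median and highest in APP/PS1 mice (log2 fold change -0.09, SE 0.07, FDR = 0.585). The APP/PS1 range enclosed the WT range.

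The transcription factors were not called. Tfeb had 6.80, 8.28, 8.72, 7.10 and 8.73 CPM in WT mice and 5.70, 8.90 and 12.04 CPM as lowest, median and highest in APP/PS1 mice (log2 fold change 0.18, SE 0.15, FDR = 0.606 in edgeR). Tfe3 had 47.2, 44.8, 46.6, 48.1 and 51.4 CPM in WT and 47.0, 48.6 and 53.4 CPM in APP/PS1 mice (0.05, SE 0.05, FDR = 0.678). Mitf had 12.2, 9.72, 8.90, 8.70 and 10.4 CPM in WT and 8.88, 10.9 and 13.8 CPM in APP/PS1 mice (0.13, SE 0.12, FDR = 0.647). Their activity is set largely by where the proteins reside in the cell, which RNA levels do not show.

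**Figure D3:**
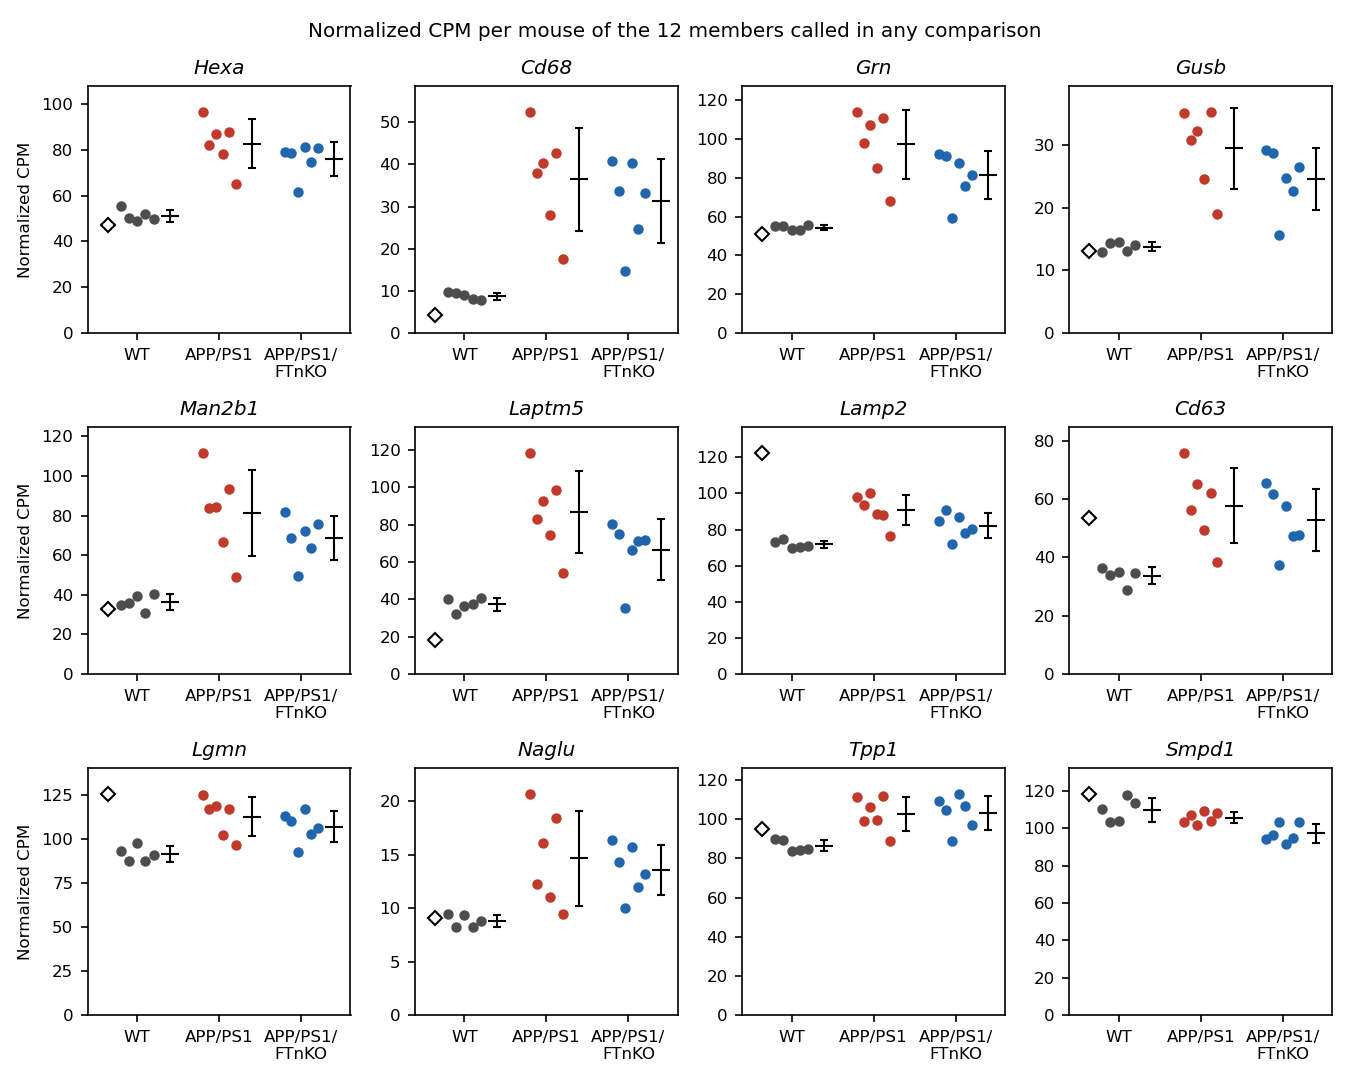
Normalized CPM of the 12 members called in any comparison, 1 panel per gene with its own axis from 0, points for mice (WT grey, APP/PS1 red, APP/PS1/FTnKO blue), black marks and bars for the mean and SD of each group, and an open diamond for WT mouse 19622, which is in neither mean nor test. Cd68 runs from 7.75 to 9.70 CPM in WT and from 17.5 to 52.3 CPM in APP/PS1 mice, and Smpd1 is the only panel in which APP/PS1/FTnKO mice lie below WT mice.

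Within each transgenic genotype the same mice stood at the ends of the range for most of these genes. Over the 10 members called higher in APP/PS1, mouse 19744 was the lowest APP/PS1 mouse for 10 of 10 and mouse 16975 the highest for 8 of 10. Among APP/PS1/FTnKO mice, 18973 was the lowest for 10 of 10 and 16974 the highest for 7 of 10. The median log2 ratio of the 10 members to the WT mean was 0.33 in 19744 and 1.20 in 16975, and 0.16 in 18973 and 0.93 in 16974. In each transgenic genotype 1 male had the highest median and the other 2 males the 2 lowest.

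Markers of microglia differed with the genotypes and moved with the order of the APP/PS1 mice and in part with that of the APP/PS1/FTnKO mice. All 12 markers of activated microglia and all 12 of homeostatic microglia were detected in every genotype. The summed level of the activated markers was 170 to 204 CPM in WT mice, between 275 and 594 CPM in APP/PS1 mice and between 232 and 490 CPM in APP/PS1/FTnKO mice, and 11 of the 12 rose in APP/PS1 against WT mice. The homeostatic markers summed to 355 to 424, 445 to 679 and 340 to 538 CPM in the same order, with 5 of 12 called higher in APP/PS1. Mouse 19744 had the lowest sums of the APP/PS1 mice (275 and 445 CPM) and 18973 the lowest of the APP/PS1/FTnKO mice (232 and 340 CPM). In the 6 APP/PS1 mice the homeostatic sums had the same order as the medians of the members, from 445 CPM in 19744 to 679 CPM in 16975, and the activated sums had it except that 19554 (594 CPM) lay above 16975 (591 CPM) and 19723 (557 CPM). At the upper end of the APP/PS1/FTnKO mice the order differed, since 16974 had 451 and 509 CPM, below 18943 with 490 and 527 CPM, and 19720 had the highest homeostatic sum of its genotype (538 CPM) with the second lowest median of the members (0.52). Markers of border macrophages summed to 6.51 to 9.23, 6.41 to 11.0 and 5.16 to 11.1 CPM, with 0 of 6 called in edgeR and 0 at an unadjusted p under 0.05. Astrocyte markers summed to 4873 to 5752 CPM in WT mice, with 5110 to 7264 CPM in APP/PS1 mice and 5118 to 6710 CPM in APP/PS1/FTnKO mice. In APP/PS1 against WT mice 8 of 8 astrocyte markers were positive (median log2 fold change 0.22), 4 had an unadjusted p under 0.05 and 1 was called higher. The mice with the highest member levels had the lowest RIN of their genotypes, 7.7 in 16975 and 7.6 in 16974. The part of microglial and astrocyte markers in the result was not tested. With RIN as a further term in the fit, 6 members were called higher, where 0.459% of all genes were, and the median log2 fold change of the 39 was 0.12. Cd63 (FDR = 0.0977), Lamp2 (0.0946), Lgmn (0.323) and Naglu (0.435) were then not called in edgeR.

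**Figure D4:**
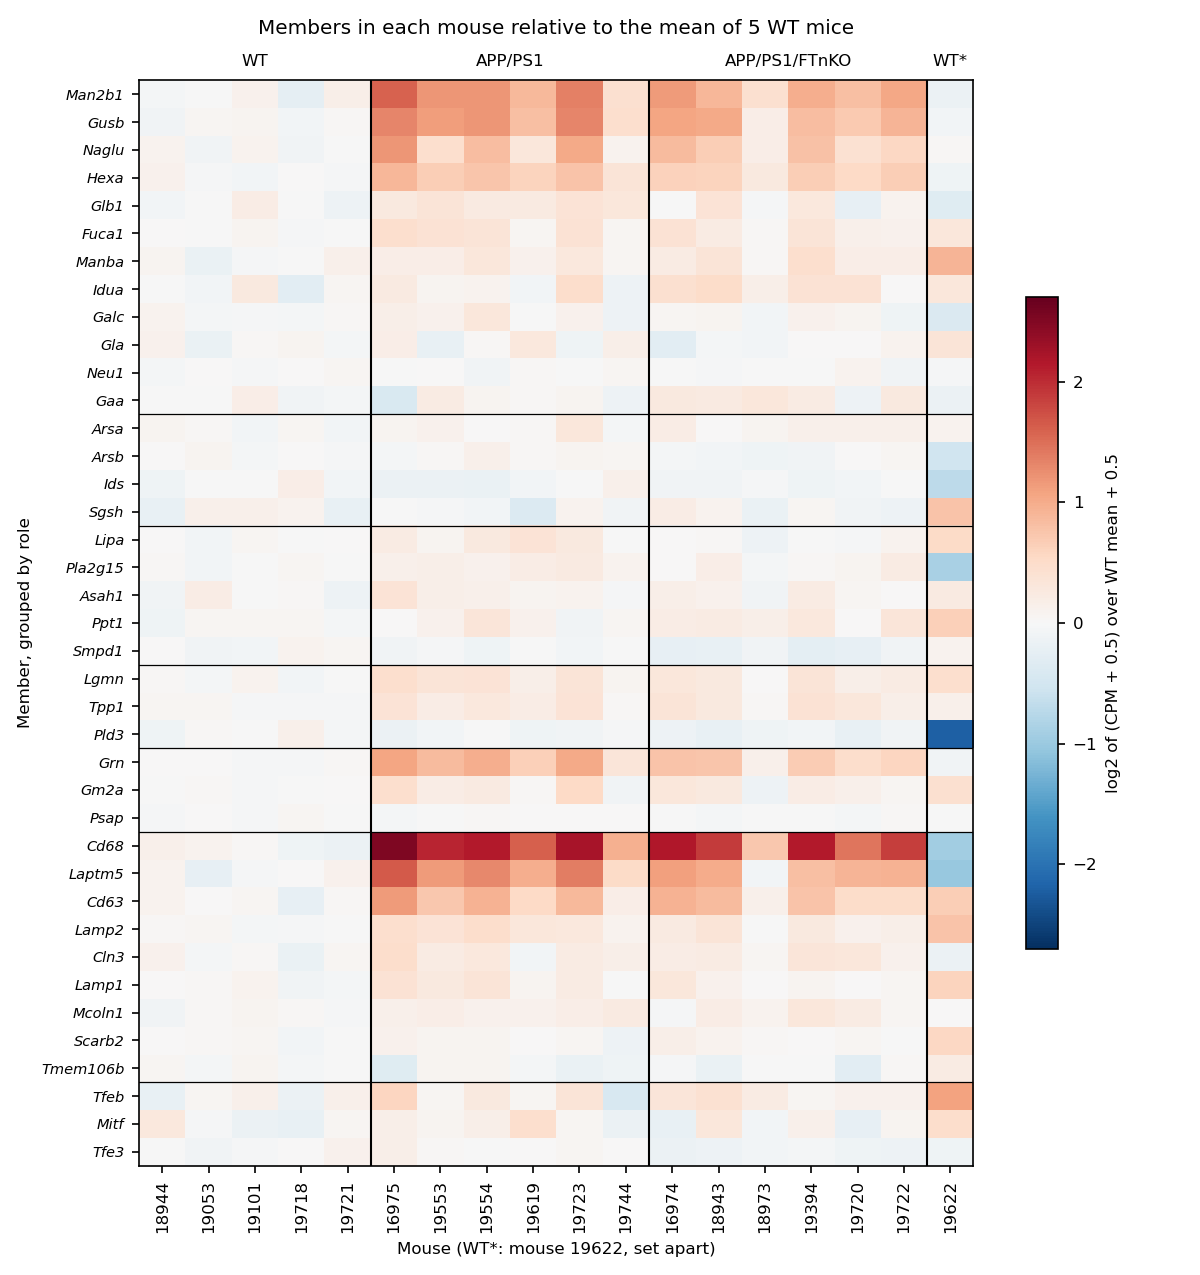
Each of the 39 members (rows, grouped by role) in each of the 18 mice (columns), as the log2 ratio of CPM + 0.5 to the mean of 5 WT mice + 0.5, with red above and blue below the WT mean and WT mouse 19622 at the right. The rows of Cd68, Man2b1, Gusb and Grn are red in all transgenic mice and palest in 19744 and 18973, that of Laptm5 is red in all of them but 18973, and the column of 19622 departs from the other WT mice in most rows.

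The second comparison asked what deletion of FT in forebrain neurons changed in APP/PS1 mice. Here 0 of the 39 members were called in edgeR's test, where 0.184% of all genes tested rose and 0.144% fell, and 9 members had an unadjusted p under 0.05, as did 11.5% of all genes. The median log2 fold change of the members was -0.08 against 0.00 for all genes, with 10 members positive and 29 negative. The 29 include all 10 members that rose in the first comparison, which shares the APP/PS1 mice. The median and the signs are therefore not read as an effect of the deletion. Without APP/PS1 mouse 16975, or with RIN as a further term, the median of the members was -0.03. DESeq2 called 1 member, Tfe3, as lower, where it called 0.94% of the 14365 genes with an adjusted p as lower.

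Tfe3 was the only member in which all 6 APP/PS1/FTnKO mice (42.4, 43.5 and 45.6 CPM as lowest, median and highest) lay below all 6 APP/PS1 mice (47.0, 48.6 and 53.4 CPM), a pattern that 0.373% of all genes tested showed. The log2 difference was -0.16 (SE 0.04, FDR = 0.133 in edgeR and 0.0402 in DESeq2). Tfeb (0.04, SE 0.14) and Mitf (-0.13, SE 0.11) had FDR values of 0.946 and 0.710, and their groups overlapped, with lowest, median and highest CPM in APP/PS1/FTnKO mice of 8.25, 8.98 and 10.7 for Tfeb and 8.56, 10.1 and 12.5 for Mitf. Summed excitatory neuron markers were 3968 to 5745 CPM in APP/PS1/FTnKO mice against 4750 to 6862 CPM in APP/PS1 mice, with 0 of 8 called in edgeR and 2 at an unadjusted p under 0.05. Their part in the Tfe3 value was not tested. Psap had 1553, 1584 and 1645 CPM as lowest, median and highest in APP/PS1/FTnKO mice and Tmem106b 136, 163 and 169 CPM, and both overlapped the APP/PS1 mice.

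The first and second comparisons share the 6 APP/PS1 mice, in which the 10 members that rose had been high, so their differences here are given as values and their sign is not read. For these 10, the log2 difference of APP/PS1/FTnKO from APP/PS1 mice ran from -0.38 for Laptm5 to -0.07 for Lgmn, and the groups overlapped in all 10. Laptm5 (SE 0.17, FDR = 0.409), Gusb (-0.26, SE 0.14, FDR = 0.489), Grn (-0.26, SE 0.10, FDR = 0.352), Man2b1 (-0.25, SE 0.15, FDR = 0.579) and Cd68 (-0.23, SE 0.21, FDR = 0.737) had the largest of these differences. The median log2 difference of the 12 activated microglia markers was -0.28 and that of the 12 homeostatic ones -0.25, and 0 of either were called in edgeR, with 1 and 5 at an unadjusted p under 0.05. Their part in the members' values was not tested. Outside the 10, Lipa (-0.21, FDR = 0.196), Glb1 (-0.21, FDR = 0.318) and Smpd1 (-0.12, FDR = 0.291) were lower and Gaa (0.21, FDR = 0.359) and Idua (0.21, FDR = 0.527) higher in value without passing the test.

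**Figure D5:**
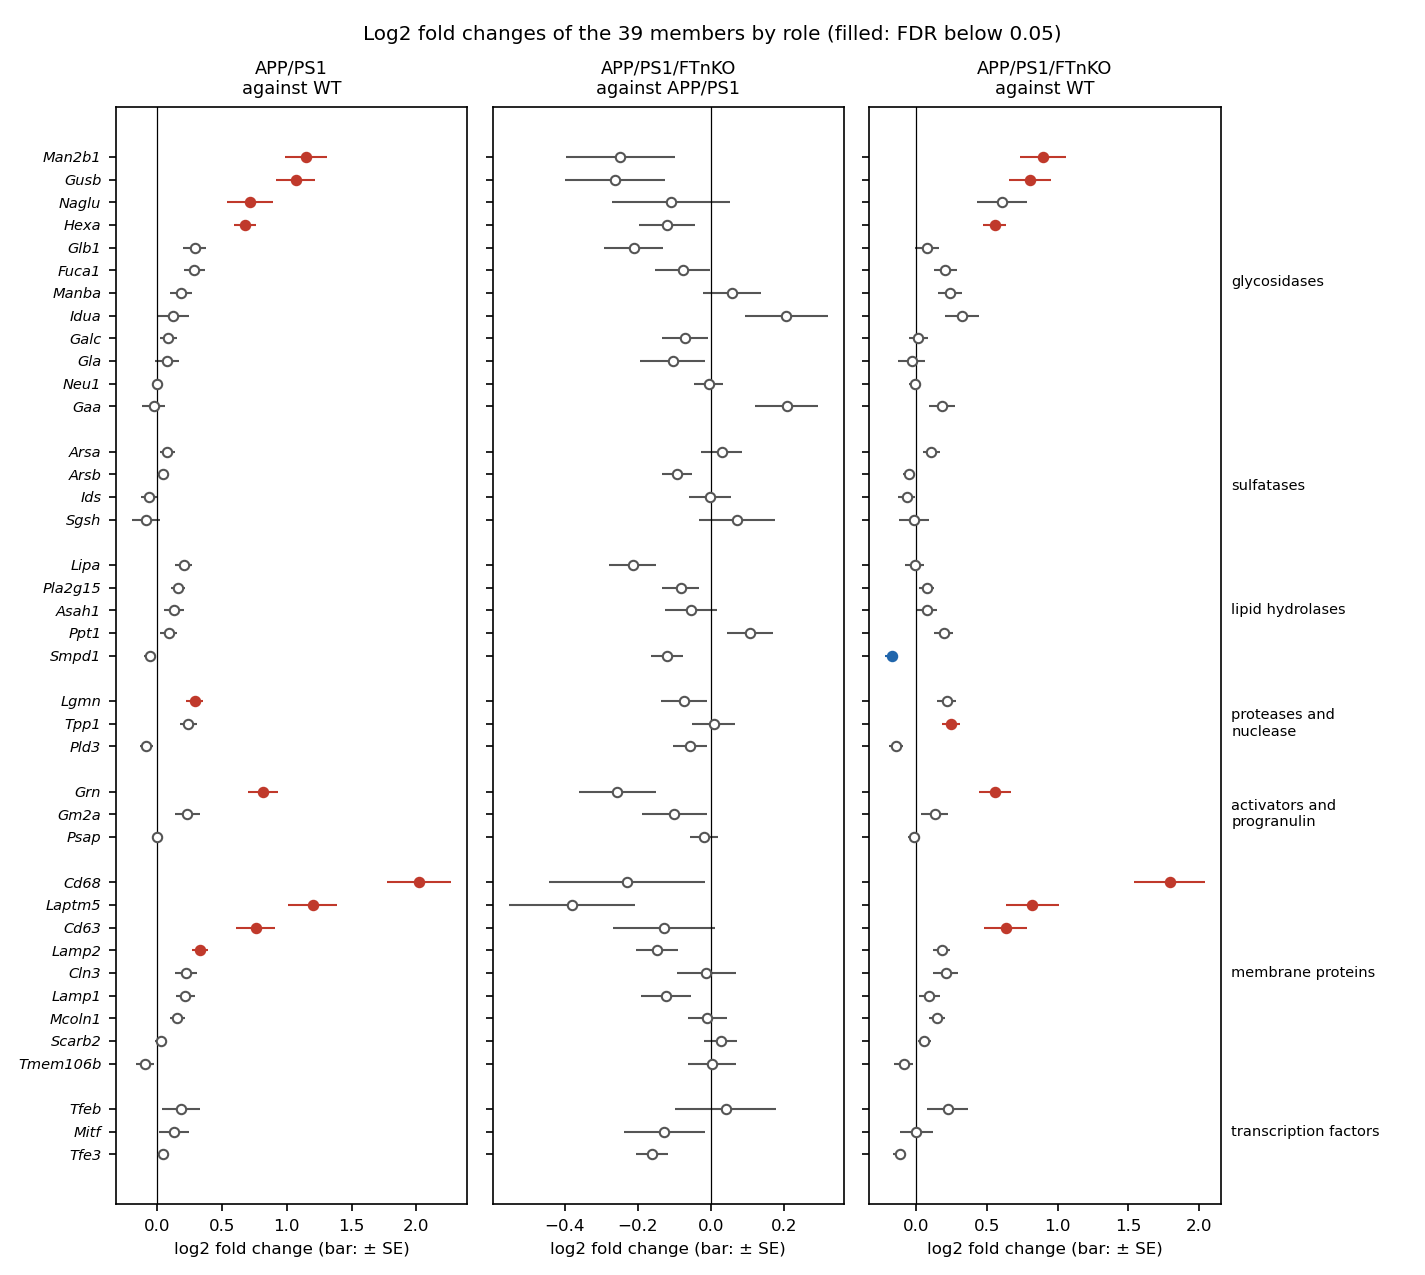
Log2 fold changes (points) with their SE (bars) of the 39 members by role in the 3 comparisons, with filled points for an FDR below 0.05 (red higher, blue lower) and a separate scale in each panel. In the left panel 10 points are filled, in the middle panel 0 and in the right panel 9, of which Smpd1 is the 1 that lies below 0.

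The third comparison set APP/PS1/FTnKO against WT mice and shares the 5 WT mice with the first, so the 2 are given side by side and not counted as independent. In it, 8 members rose and 1 fell, where 2.22% of all genes rose and 1.65% fell. The median log2 fold change was 0.13, with 28 members positive and 11 negative. It was 0.0798 with all 18 mice, 0.0843 in mice with a RIN of at least 8 and 0.0951 with RIN as a further term. Groups did not overlap in 7 members that were higher and 1 that was lower, patterns seen in 2.75% and 2.85% of all genes. With 19622 included, 6 members were called higher, where 1.22% of genes were. Cd63 (FDR = 0.0996), Tpp1 (0.0655) and Smpd1 (0.0537) were then not called. Leaving out 1 mouse, any of 16974, 18943, 18944, 19053 and 19718, left 5 members called in place of 9, and leaving out 18973 gave 12. The share of all genes called moved too, from 3.87% to between 1.17% and 1.82% without any of those 5 mice and to 5.69% without 18973. In such fits Laptm5 lost its call without any 1 of 6 mice, Cd63 of 7, Tpp1 of 9 and Smpd1 of 11.

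Among the members called in both, Cd68 differed by 1.79 on the log2 scale (SE 0.25, FDR = 0.00107, edgeR) beside 2.02 in APP/PS1. Man2b1 had 0.90 (FDR = 0.00633) beside 1.15, Laptm5 0.82 (FDR = 0.0236) beside 1.20, and Gusb 0.81 (FDR = 0.00762) beside 1.07. Cd63 had 0.63 (FDR = 0.0276) beside 0.76, Grn 0.56 (FDR = 0.0121) beside 0.82, and Hexa 0.56 (FDR = 0.00161) beside 0.68. The difference between the 2 transgenic genotypes was not called for any of these 7. Naglu (0.61, FDR = 0.0597), Lgmn (0.22, FDR = 0.0725) and Lamp2 (0.18, FDR = 0.0978) were not called here. Of the activated microglia markers 11 of 12 were called higher in this comparison (median log2 fold change 1.86), and 2 of 12 homeostatic ones (0.27). Their part in the members' values was not tested.

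Tpp1 and Smpd1 were called in this comparison and not in the first. Tpp1 (ENSMUSG00000030894, chromosome 7 from 105744811 to 105752235) had 89.7, 89.4, 83.9, 84.1 and 84.9 CPM in WT mice, 89.0, 103 and 112 CPM as lowest, median and highest in APP/PS1 and 88.9, 106 and 113 CPM in APP/PS1/FTnKO mice. Its log2 fold change was 0.25 (SE 0.06, FDR = 0.0354, edgeR) beside 0.24 in APP/PS1, and the lowest APP/PS1/FTnKO mouse lay within the WT range.

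Smpd1 (ENSMUSG00000037049, chromosome 7 from 105554360 to 105558389), the acid sphingomyelinase that makes ceramide, had 110, 104, 104, 118 and 114 CPM in WT mice. It had 102, 106 and 110 CPM as lowest, median and highest in APP/PS1 and 91.7, 95.5 and 104 CPM in APP/PS1/FTnKO mice. The highest APP/PS1/FTnKO mouse lay less than 1 CPM below the lowest WT mouse, and the log2 fold change was -0.17 (SE 0.05, FDR = 0.0449, edgeR), called in 12 of 29 alternative settings. Summed excitatory neuron markers were 3968 to 5745 CPM in APP/PS1/FTnKO and 5290 to 7110 CPM in WT mice, and 1 of the 8 was called lower. Their part in the Smpd1 value was not tested.

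Genes related to the members were tested in the same fit. Of 19 tested lysosomal hydrolases and cofactors outside the set, 3 rose and 0 fell in APP/PS1 against WT mice, where 1.32% of all genes rose, and 8 had an unadjusted p under 0.05. With 19622 in the fit 2 rose. Npc2, the lumenal cholesterol carrier, was 1 of the 3 (log2 fold change 0.64, SE 0.14, FDR = 0.0213 in edgeR, and 0.100 with 19622). Of 20 other lysosomal membrane proteins only Slc11a1, a metal transporter of phagocytes, rose (1.84, FDR = 0.00167).

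Of 19 subunits of the vacuolar ATPase, which acidifies the lysosome, only Atp6v0d2 rose. It had 0 counts in each of the 5 WT mice, which allows up to 0.0327 CPM over the group, 3 to 48 counts in APP/PS1 and 3 to 43 counts in APP/PS1/FTnKO mice. The median log2 fold change of the ATPase subunits was 0.00 in APP/PS1 and -0.06 in APP/PS1/FTnKO against WT mice. Among 15 genes of enzyme sorting, 0 were called in APP/PS1 against WT mice in edgeR (5 with an unadjusted p under 0.05), and Gnptg, a subunit of the enzyme that makes the mannose 6-phosphate tag, rose in APP/PS1/FTnKO against WT mice (0.19, FDR = 0.0494, and 0.0536 with 19622).

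Of 11 tested regulators of TFEB and TFE3, Rragd fell in APP/PS1/FTnKO against both other genotypes. Of all genes tested, 0.144% fell against APP/PS1 and 1.65% against WT mice. Rragd encodes a Rag GTPase that brings mTORC1 and TFEB to the lysosome and is itself a target of these factors. It ranged from 154 to 203 CPM in WT mice and from 154 to 200 CPM in APP/PS1 mice, whereas APP/PS1/FTnKO mice had 126 to 154 CPM, without overlap with either (log2 difference to APP/PS1 -0.31, SE 0.06, FDR = 0.0392, edgeR). Against WT mice its log2 fold change was -0.34 (SE 0.06, FDR = 0.00826). Lower values without overlap were seen in 0.373% of all genes against APP/PS1 and 2.85% against WT mice. Against WT mice, 2 of the regulators had them. With 19622 in the fit the FDR values were 0.670 and 0.275. Mouse 19622 is in neither group of the first of these comparisons. The share of all genes called then moved from 0.327% to 0.0116% against APP/PS1 and from 3.87% to 1.51% against WT mice. The excitatory neuron markers, whose sums overlapped between the genotypes as given above, had 2 of 8 against APP/PS1 and 4 of 8 against WT mice at an unadjusted p under 0.05. Of all genes, 11.5% and 22.1% had such a p. The markers summed to 582 CPM in 19622. Their part in the Rragd value was not tested. Slc11a1 (1.49, FDR = 0.00958) also rose in APP/PS1/FTnKO against WT mice. Against APP/PS1 mice, log2 fold changes in APP/PS1/FTnKO were negative in 13 of 19 other hydrolases and cofactors (median -0.06). They were negative in 16 of 20 other membrane proteins (-0.07) and 15 of 19 ATPase subunits (-0.07). The same was true of 8 of 15 sorting genes (-0.02) and 10 of 11 regulators (-0.09).

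Whether a genotype difference depended on sex was tested, and a difference in level between the sexes was not. The test of sex by genotype called 0 of 39 members and 0 of 17414 genes in each of the 3 comparisons in edgeR, with 0, 1 and 1 members at an unadjusted p under 0.05, and each sex had 2 or 3 mice per genotype.

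WT mouse 19622 differed from the other WT mice in most members. With the scaling of all 18 mice, 19 members lay above and 12 below the range of the other 5 WT mice (79.5%), against 73.8% of the 17285 genes tested. Pld3 was the most reduced, with 144 CPM against 618 to 735, followed by Laptm5 (18.1 against 32.1 to 40.8) and Cd68 (4.33 against 7.76 to 9.68). Tfeb (17.5 against 6.79 to 8.74), Manba (18.7 against 8.38 to 10.6) and Lamp2 (122 against 69.5 to 74.6) were the most raised. Psap, Mcoln1 and Neu1 lay within the range of the other WT mice. Oligodendrocyte markers summed to 10919 CPM in this mouse against 3820 to 5820 in the other WT mice. Homeostatic microglia markers summed to 184 CPM against 355 to 424, and activated ones to 211 against 170 to 204. The part of these markers in the values of 19622 was not tested.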

How the data were processed

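Raw counts per gene were deposited by the authors as a single table, counted with featureCounts from TruSeq Stranded mRNA libraries (paired reads of 150 bases, Illumina), trimmed with Trimmomatic 0.33 and aligned with HISAT2 2.1.0 to GRCm38; the submitters' notes also list mm9. No source used here gives the featureCounts version, strand setting, handling of multiply mapped reads or annotation. The members and gene lists were chosen with earlier results of these data known, and support nothing as independent evidence.

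Counts were analysed in R 4.3.3 with edgeR 4.0.16. Genes passed filterByExpr with a minimum count of 10 (17414 of 55487 genes), libraries were scaled by TMM, and glmQLFit and glmQLFTest were run on 17 mice with genotype and sex, without WT mouse 19622, with Benjamini-Hochberg adjustment over all genes tested. The methods of the study left out 1 WT mouse, which they do not name, and used DESeq2. DESeq2 1.42.0 and limma 3.58.1 (voom), other scalings and filters, RIN and leaving out each mouse were alternatives. Groups were taken from the genotype labels, and each sample is 1 mouse. Members described mouse by mouse in WT, and by lowest, median and highest mouse in the transgenic groups, were those called in any comparison and 8 fixed by name: Lamp1, Lamp2, Grn, Psap, Tmem106b, Tfeb, Tfe3 and Mitf. Of related lists, at most 4 called genes were named, and some are not reported here. Exon lengths came from GENCODE M21 (55227 of 55487 genes matched) and promoters from RefSeq. The edgeR, DESeq2 and limma steps were tested on simulated data with known changes.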

Additional observations from a re-analysis of the deposited data

Results flagged for a closer look

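Of 54 sets of mice tested with Dixon's ratio (18 members described singly, in each of 3 genotypes, without WT mouse 19622), 3 held a mouse far from the others, and chance gives about 1 in 20 sets. In APP/PS1/FTnKO mice, Hexa had 61.5 CPM in mouse 18973, with the nearest mouse at 74.8 CPM, and Laptm5 had 35.3 CPM in the same mouse, with the nearest at 66.3 CPM. Mouse 18973 also had the lowest sums of activated and homeostatic microglia markers of its genotype (232 and 340 CPM). Its summed blood markers (hemoglobin genes) were the highest of its genotype, at 435 CPM, with the next mouse, 19722, at 129 CPM. The part of these markers in the Hexa and Laptm5 values was not tested. Lamp1 had 356 CPM in APP/PS1/FTnKO mouse 16974, with the nearest mouse at 313 CPM. Mouse 16974 had the lowest RIN of all 18 mice, 7.6, whose part in the value was not tested.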

How the results depend on the processing

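Over 29 alternatives, no called member changed sign, and Hexa, Gusb, Man2b1, Grn and Cd68 kept their calls in all 29 in both comparisons with WT, as did Laptm5 in APP/PS1 against WT. With RIN as a further term, 6 members were called in APP/PS1 against WT in place of 10, and 0.482% of all genes. DESeq2 called 1 member in APP/PS1/FTnKO against APP/PS1, and 1.76% of genes. Leaving out each of the 17 mice gave 7 (without 19053) to 12 (without 19744) members in APP/PS1 against WT, 0 to 0 between the transgenic genotypes, and 5 (without 16974, 18943, 18944, 19053 or 19718) to 12 (without 18973) in APP/PS1/FTnKO against WT, in place of 9. The share of all genes called in these fits was 0.706% without 19053 and 2.68% without 19744 in the first, and 1.17% to 1.82% and 5.69% in the last. The members' median log2 fold changes ran from 0.15 to 0.18, from -0.09 to -0.03 (without 16975) and from 0.09 to 0.16 in these fits. In APP/PS1 against WT, Lamp2 was not called with all 18 mice, with RIN as a term or in mice with a RIN of at least 8 (FDR = 0.430, 0.0946 and 0.0501, edgeR). Cd63 was not called with all 18 mice, without 19053 or with RIN as a term (0.0618, 0.0530 and 0.0977). Lgmn was not called with all 18 mice, without any 1 of 8 mice or with RIN (0.255, 0.0617 to 0.137, and 0.323). Naglu was not called without any 1 of 12 mice or with RIN (0.0580 to 0.163, and 0.435). In mice with a RIN of at least 8, Lgmn (0.178) and Naglu (0.197) were not called either. In APP/PS1/FTnKO against WT, the same held for Laptm5 without any 1 of 6 mice (0.0504 to 0.0808), Cd63 of 7 (0.0503 to 0.0796), Tpp1 of 9 (0.0572 to 0.0934) and Smpd1 of 11 (0.0532 to 0.133). With RIN as a term, 7 members were called in that comparison in place of 9, and 2.23% of all genes in place of 3.87%. In mice with a RIN of at least 8, 7 members and 2.11% of genes were called. The cause was not tested. Uncalled members changed sign in some alternative in 11, 11 and 13 cases. The lowest count of any member was 97, for Tfeb, so counting error was largest there. No paired analysis was run, because the labels do not pair mice of different genotypes.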
